A study of Mus musculus with 26 samples.

Results

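The keratin family is described here as the 53 protein-coding mouse genes whose GRCm38 symbols begin with Krt and a digit, out of 35975 genes counted. The members were chosen by their symbols and not by a measured value, but the family itself was taken up with earlier results of these data known. Following their known sites of expression they were sorted into 6 simple, 3 basal, 13 suprabasal, 4 stress-inducible, 18 hair and nail and 8 root sheath keratins. Krt222, a keratin-like gene, was left without a class. In total, 31 members passed the filter on low counts and entered the tests, and the other 22 are given by their levels. Only 16 of the 31 had at least 10 counts in 4 or more of the day 0 samples. The remaining 15, among them Krt5, Krt13, Krt6a and Krt1, passed the filter only through samples of later days, so that a rise was built into their passing it.

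Polyadenylated RNA from colon was sequenced in 26 male wild-type C57BL/6J mice that were about 10 weeks old at the start, in a model in which azoxymethane (AOM, a mutagen) and repeated cycles of dextran sodium sulfate (DSS, which injures the epithelium) lead to colon tumours. Mice received either a standard diet or a diet with GW3965, an agonist of the liver X receptors. On each diet 3 mice were sampled 22, 43 and 70 days after AOM, and the comparison asks how keratin levels changed along this course and whether the diet changed them. The day 0 mice, 4 on each diet, received neither AOM nor DSS and had eaten their diet for 22 or 43 days. According to the study's methods the tissue was distal colon, taken with tumours where these had formed, so each sample mixes epithelium, stroma, muscle and leukocytes, and fewer cells of a type and less RNA per cell cannot be told apart. For 1 GW3965 day 0 sample (replicate 4) the title and the diet tag disagreed, and the title was followed. On each diet the day 22 and day 43 mice shared 1 cage and the day 0 mice another, so diet and cage cannot be told apart on those days. For the same reason, changes from day 0 to day 22 or day 43 cannot be told apart from cage. Each day 70 mouse came from its own cage.

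Keratins are the intermediate filament proteins of epithelial cells. A filament forms only from pairs of a type I and a type II keratin, and each kind of epithelium uses its own pairs. The single-layered lining of the intestine uses the simple keratins Krt8, Krt18, Krt19 and Krt20. Stratified epithelia, as in skin, mouth, oesophagus and the anal canal, make Krt5 and Krt14 in the basal layer, then switch to Krt1 and Krt10 in cornified layers or Krt4 and Krt13 in mucosal ones, and Krt6a, Krt6b, Krt16 and Krt17 are known for rising after wounding. The hair keratins build the hair shaft and nail, and a further set builds the sheath around the hair root.

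The libraries held 18195345 to 41522203.8 estimated counts, with a median of 20424701, and day 43 stood apart from the other days. Counts of ribosomal protein genes made up 5.33 to 6.51% of the library at day 0, 6.06 to 10.7% at day 22, 10.0 to 18.6% at day 43 and 3.96 to 6.66% at day 70, so that day 43 did not overlap day 0. The RNA integrity number was 2.6 in standard-diet day 43 replicate 1, the deepest library. Elsewhere the integrity number was at least 6.8 at day 43 and at least 9.1 on the other days. The ribosomal share was a term of the fit, and fold changes from it are given for equal ribosomal share. Results without the term are given beside those of day 43. Groups of this size often do not overlap. On the standard diet 26.9%, 48.4% and 43.1% of all tested genes had normalised counts at days 22, 43 and 70 that did not overlap those of day 0, and on GW3965 these shares were 48.2%, 57.4% and 31.3%. Between the diets the shares were 23.6%, 10.9% and 19.1% for the same days.

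The 53 genes lie in a pair of clusters. The cluster on chromosome 11 held 27 members between positions 99232761 and 100269871 (GRCm38), all on the minus strand, and the cluster on chromosome 15 held 26 members between 101347444 and 102032027, with 22 on the minus strand. The chromosome 11 genes encode type I keratins, and those on chromosome 15 type II keratins apart from Krt18, which is type I. RefSeq start sites of build GRCm38.p6 matched 36 of the members (37 start sites). In the 150 bases before the start, the TATA box letters TATAAA, searched on both strands, occurred in 15 of the 37 windows, against 7.57% of all 32851 windows of this length. The CCAAT box letters CCAAT occurred in 11 windows (24.5% of all windows held them), the GC box letters GGGCGG in 2 (28.6%) and the AP-1 letters TGANTCA in 1 (4.24%). By class, TATAAA was found for 6 of 8 root sheath genes, 5 of 11 hair and nail genes, 3 of 10 suprabasal genes, 0 of 2 basal genes and, of 5 simple keratin genes, for Krt20 alone. A match describes the letters and is no evidence of binding.

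The windows of Krt20, a simple keratin of differentiated colon epithelium, of Krt5 and Krt13, a basal and a mucosal suprabasal keratin with large changes, and of Krt71 and Krt25, the leading root sheath genes, are printed 5′ to 3′ on the gene's strand, with TATAAA and CCAAT in capitals. They show the mixture of starts with and without these letters in the classes compared.
Krt20 (minus strand, chr11:99438154-99438303): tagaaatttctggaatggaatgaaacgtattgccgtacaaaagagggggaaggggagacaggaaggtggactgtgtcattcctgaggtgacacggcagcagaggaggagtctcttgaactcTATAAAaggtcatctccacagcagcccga
Krt5 (minus strand, chr15:101712906-101713055): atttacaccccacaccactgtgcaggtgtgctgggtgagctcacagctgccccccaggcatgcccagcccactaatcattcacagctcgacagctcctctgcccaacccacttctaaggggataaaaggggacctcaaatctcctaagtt
Krt13 (minus strand, chr11:100121567-100121716): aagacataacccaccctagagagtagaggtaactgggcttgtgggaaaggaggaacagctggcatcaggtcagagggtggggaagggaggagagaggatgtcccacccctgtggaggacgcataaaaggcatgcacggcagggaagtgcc
Krt71 (minus strand, chr15:101743098-101743247): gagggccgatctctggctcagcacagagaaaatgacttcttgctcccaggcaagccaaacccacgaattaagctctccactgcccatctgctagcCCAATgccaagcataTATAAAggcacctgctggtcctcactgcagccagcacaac
Krt25 (minus strand, chr11:99322952-99323101): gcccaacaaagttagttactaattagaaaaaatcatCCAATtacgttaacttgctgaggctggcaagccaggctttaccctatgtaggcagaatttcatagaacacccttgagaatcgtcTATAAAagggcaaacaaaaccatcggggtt

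Levels are given in TPM, the transcript abundance scaled for transcript length and library size, which can be compared between genes. In the untreated colon of day 0, simple keratins made up 99.2 to 99.6% of the summed keratin TPM in every sample, and the 20 basal, suprabasal and stress-inducible keratins 0.341 to 0.709%. At day 22 the stratified share was 0.498 to 1.32%. It was 19.7, 42.7 and 20.6% in the standard-diet samples of day 43 and 34.4, 6.70 and 48.1% in those on GW3965. At day 70 it was 18.1, 48.5 and 40.7% on the standard diet and 93.4, 0.418 and 65.9% on GW3965. All samples of day 43 and 5 of the 6 of day 70 lay above the range of day 0, and GW3965 day 70 replicate 2 lay within it.

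**Figure D1:**
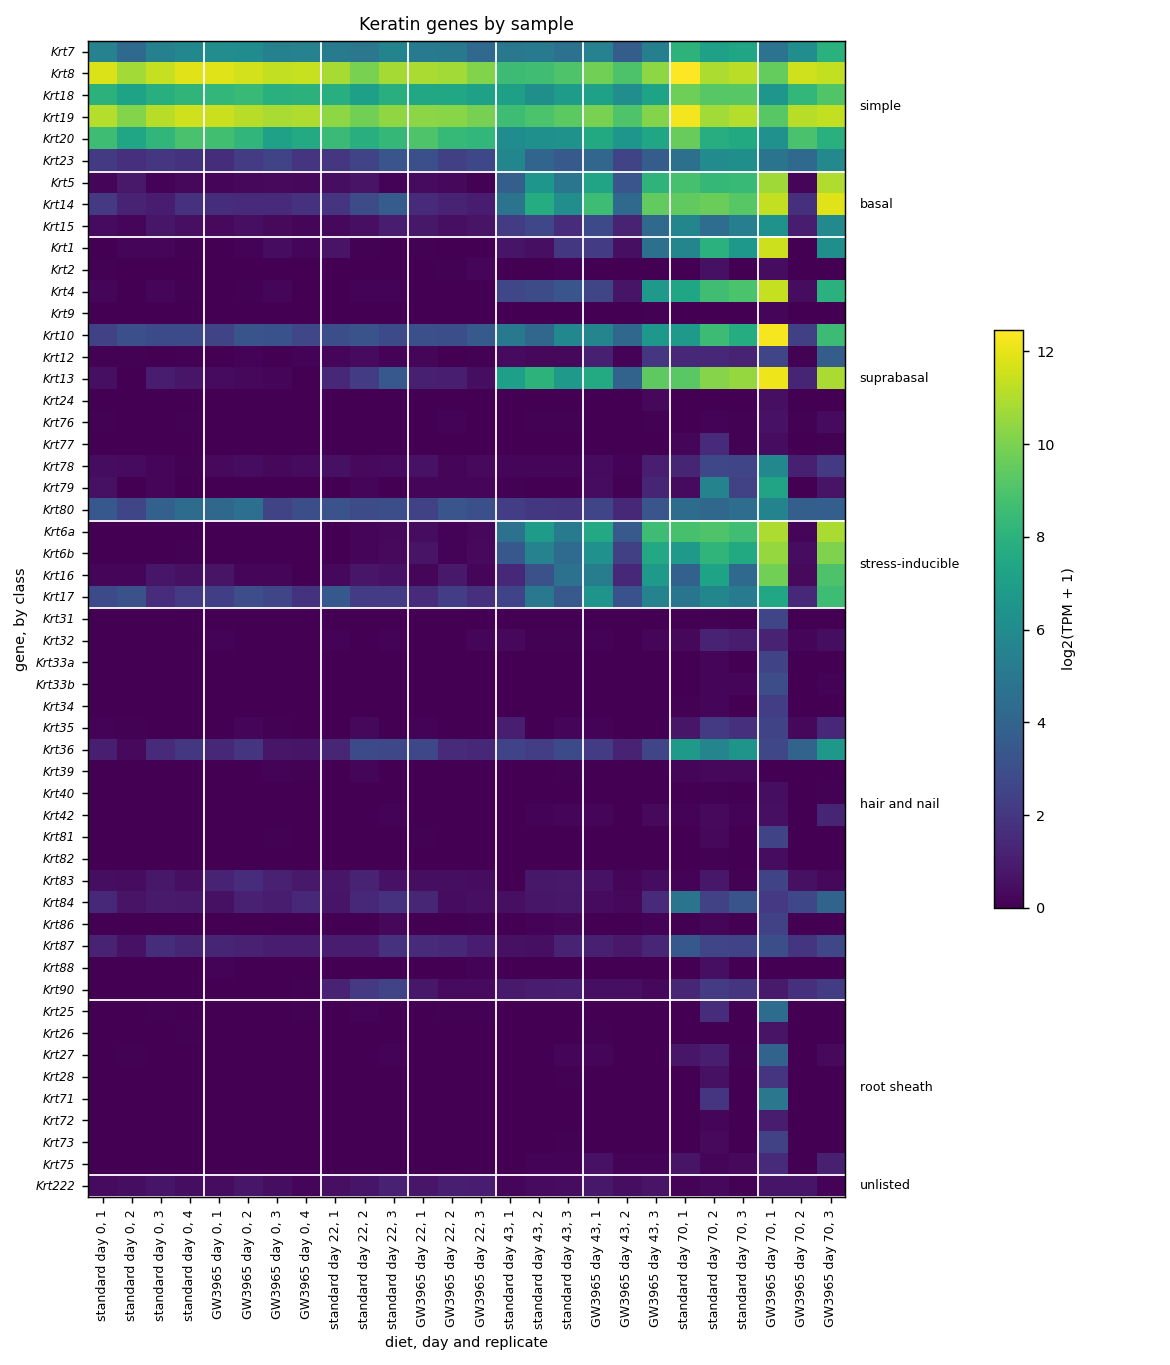
Each row is a keratin gene, ordered by class, each column a sample ordered by day and diet, and the colour is log2(TPM + 1). Krt8, Krt18, Krt19 and Krt20 are high in all 26 samples. Many of the basal, suprabasal and stress-inducible rows are high at day 70, except in GW3965 day 70 replicate 2, and fewer at day 43. Krt2, Krt9, Krt24, Krt76 and Krt77 stay low throughout.

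The summed keratin TPM itself was 3225 to 7707 at day 0 and 2329 to 3909.9 at day 22. The sums of day 43 were 1295, 1878 and 1775 on the standard diet and 3452, 1289 and 5435 on GW3965. Those of day 70 were 15258, 9147 and 9526 on the standard diet and 25809.5, 6153 and 18544 on GW3965. The highest sum, in GW3965 day 70 replicate 1, was almost all stratified keratin, since its simple keratins summed to 1557 TPM and its stratified keratins to 24119 TPM.

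**Figure D2:**
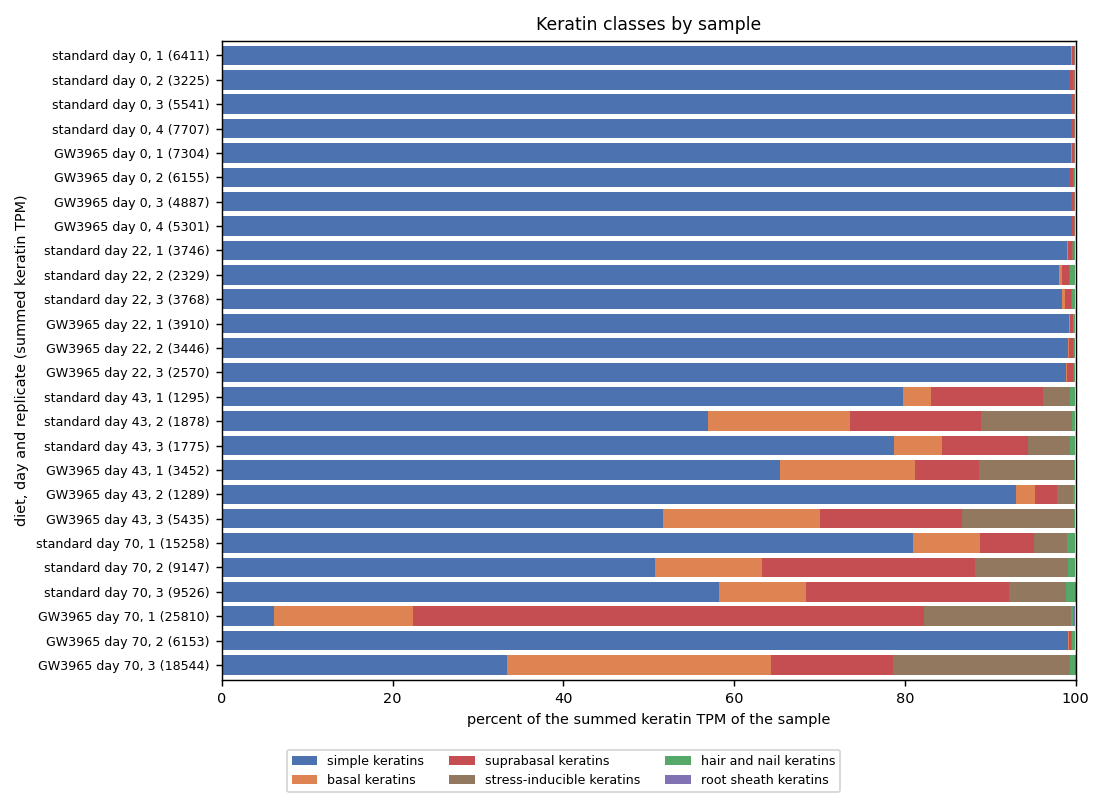
Horizontal bars split the summed keratin TPM of each sample (in brackets after its name) into the keratin classes, in percent. Simple keratins fill over 98% of the bars of days 0 and 22, and at day 70 between 6.03 and 99.1%.

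Among the simple keratins, Krt8 (type II) and its type I partners Krt19 and Krt18 were the most abundant with Krt20. Krt8 was at 3551, 1719.7, 2669 and 3802 TPM in the standard-diet samples of day 0, 1795, 999.8 and 1757 at day 22, 368, 394 and 528 at day 43 and 5648, 1939 and 2347 at day 70. On GW3965 Krt8 was at 3661, 3144, 2531 and 2735 TPM at day 0, 1897, 1677 and 1102 at day 22, 889.6, 502 and 1319.8 at day 43 and 737, 3034 and 2576 at day 70. The 6 day 43 samples all lay below the 8 of day 0, and the samples of day 70 lay within or above the day 0 range in all but GW3965 replicate 1, the sample with the least simple keratin of that day.

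Krt19, a type I partner of Krt8, followed the same course. Its TPM on the standard diet was 2139, 1143, 2267 and 3054 at day 0, 1293, 888 and 1350.1 at day 22, 384, 480.1 and 638 at day 43 and 4833, 1692 and 2176 at day 70. On GW3965 it was 2815, 2258, 1901 and 2044 at day 0, 1248, 1197 and 971 at day 22, 982, 519.9 and 1125 at day 43 and 597, 2216 and 2532 at day 70. Again the day 43 samples were below every day 0 sample, and standard-diet day 70 replicate 1 was the highest of all 26.

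Krt18, the usual type I partner of Krt8, was lower than Krt19 throughout. On the standard diet it was at 259, 151, 235 and 287 TPM at day 0, 228, 130.3 and 229.6 at day 22, 134, 71.7 and 114 at day 43 and 841, 589 and 601 at day 70. On GW3965 the values were 305, 337, 240.5 and 253 at day 0, 172, 179 and 140.1 at day 22, 137, 67.5 and 149.8 at day 43 and 92.8, 301 and 535 at day 70. The 3 standard-diet samples of day 70 were above every other sample of the series, whereas the GW3965 samples of that day ran from below to above the day 0 range.

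Krt20, a type I keratin of differentiated cells near the luminal surface, was at 166 to 465 TPM on the standard diet and 139.8 to 419 TPM on GW3965 at day 0. It was at 356, 231 and 315 TPM at day 22, 65.2, 75.0 and 84.0 at day 43 and 747, 213 and 189.5 at day 70 on the standard diet. On GW3965 it was at 522, 328 and 304, then 187, 92.8 and 162, then 78.4, 465 and 243 TPM on those days. Its lowest values were the 3 standard-diet samples of day 43 and GW3965 day 70 replicate 1.

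Krt7, a type II simple keratin better known from ducts than from colon surface cells, was at 17.996 to 67.3 TPM at day 0, 18.4 to 49.1 at day 22 and 11.7 to 45.7 at day 43. At day 70 it stood at 261, 138 and 158 TPM on the standard diet and 25.9, 67.2 and 251 on GW3965. All standard-diet samples and GW3965 replicate 3 of day 70 exceeded every earlier sample. Krt23, a type I keratin known to rise in stressed liver, was at 2.05 to 4.93 TPM at day 0 and 2.88 to 8.92 at day 22. It was at 51.0, 15.7 and 10.1 TPM on the standard diet and 16.1, 4.90 and 11.7 on GW3965 at day 43, then 23.6, 63.4 and 72.8 (standard diet) and 26.6, 18.4 and 57.9 (GW3965) at day 70. All 6 samples of day 70 were above the day 0 range, including GW3965 replicate 2, in which most stratified keratins were not.

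**Figure D3:**
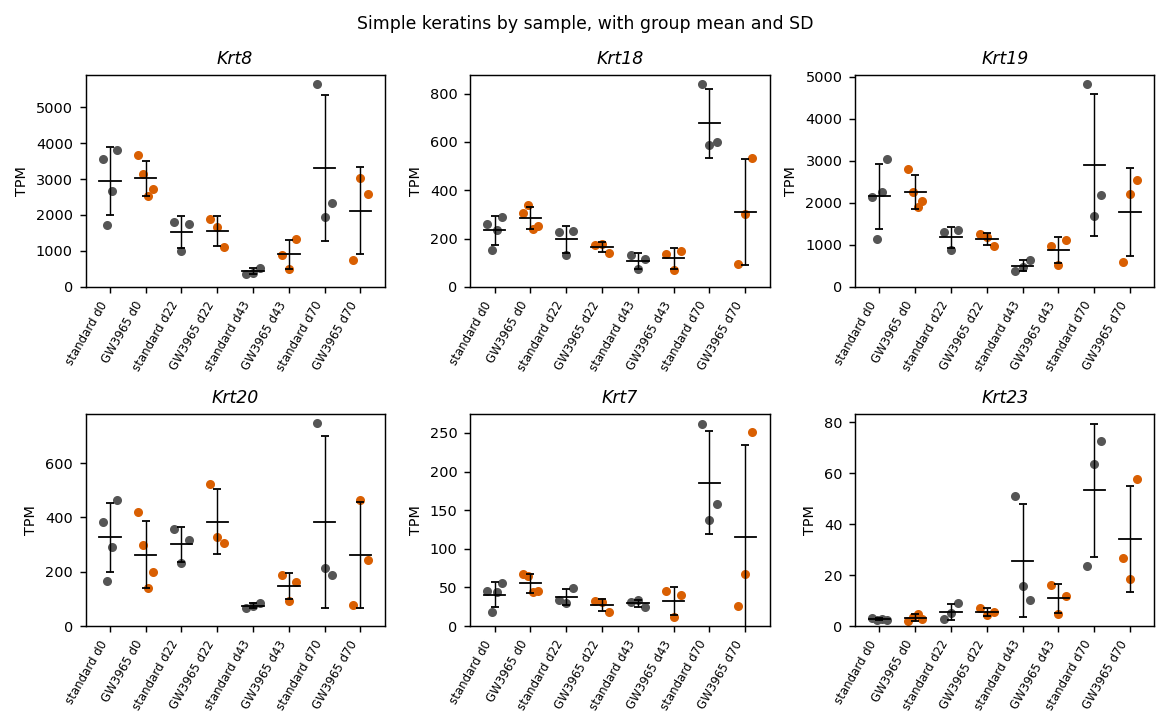
Points are samples, bars the group mean ± SD in TPM on linear axes, for the 6 simple keratins in the 8 groups of diet and day. Krt8 and Krt19 are lowest at day 43, while Krt7, Krt18 and Krt23 are highest at day 70.

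The balance within the simple keratins also differed between the days. The ratio of Krt18 to Krt8 TPM was 0.0730 to 0.107 at day 0, 0.363, 0.182 and 0.216 on the standard diet at day 43 and 0.149, 0.304 and 0.256 at day 70. On GW3965 it was 0.154, 0.134 and 0.113 at day 43 and 0.126, 0.0991 and 0.208 at day 70. These day 43 and day 70 ratios were all above the day 0 range except in GW3965 day 70 replicate 2. Against Epcam, a surface protein of epithelial cells, Krt18 was at 0.188 to 0.280 at day 0, 0.166 to 0.253 at day 43, 0.440, 0.450 and 0.405 on the standard diet at day 70 and 0.249, 0.220 and 0.380 on GW3965. Krt8 per Epcam was 2.14 to 2.74 at day 0 and 0.543 to 1.97 at day 43, without overlap, so Krt8 was lower there relative to this epithelial transcript too. The lowest of these, 0.543, was standard-diet day 43 replicate 1, with an RNA integrity number of 2.6. Krt19 per Epcam overlapped between these days, at 1.42 to 2.20 and 0.567 to 1.68. Krt20 per Epcam overlapped as well, at 0.134 to 0.335 and 0.0964 to 0.276. Summed type I over type II simple keratins was 0.774 to 1.03 at day 0, 1.07 to 1.59 at day 43 and 0.967 to 1.23 at day 70.

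The basal pair Krt5 and Krt14 was low at day 0. Krt14 (type I) was at 0.992 to 3.25 TPM at day 0 and 0.998 to 11.3 at day 22. It was at 27.0, 212 and 69.0 TPM on the standard diet and 387, 18.1 and 705 on GW3965 at day 43, then 696, 819 and 592 (standard diet) and 2515, 2.19 and 3690.0 (GW3965) at day 70. Krt5 (type II) was at 0.0790 to 0.778 TPM at day 0 and 0.0660 to 0.567 at day 22, then 12.7, 94.2 and 28.7 (standard diet) and 152, 8.65 and 273 (GW3965) at day 43 and 455, 313 and 339 (standard diet) and 1635, 0.151 and 1990.4 (GW3965) at day 70. In both genes the samples of day 43 and 5 of 6 of day 70 were above all those of day 0, and GW3965 day 70 replicate 2 was not. Where both exceeded 5 TPM, the ratio of Krt14 to Krt5 stayed between 1.53 and 2.62, although Krt5 ranged from 8.65 to 1990.4 TPM in these samples. Krt15, a type I keratin of resting basal cells, was lower, at 0.117 to 0.687 TPM at day 0, 3.43, 5.22 and 2.03 on the standard diet and 5.95, 1.29 and 18.8 on GW3965 at day 43, and 51.4, 20.6 and 38.8 (standard diet) and 80.1, 0.948 and 59.6 (GW3965) at day 70.

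Of the mucosal suprabasal pair, Krt13 (type I) reached higher levels than Krt4 (type II). Krt13 was at 0 to 1.02 TPM at day 0 and at 1.59, 3.60 and 9.81 on the standard diet and 1.14, 1.07 and 0.359 on GW3965 at day 22. At day 43 it was at 129, 263 and 107 TPM on the standard diet and 193, 14.6 and 666 on GW3965, and at day 70 at 619, 1187 and 1434 (standard diet) and 4610.2, 1.47 and 1916 (GW3965). The 3 standard-diet samples of day 22 already lay above the day 0 range, and so, narrowly, did replicates 1 and 2 on GW3965. Krt4 was at 0 to 0.181 TPM at day 0 and 0 to 0.102 at day 22, at 5.19, 6.25 and 8.87 (standard diet) and 5.10, 0.613 and 102 (GW3965) at day 43, and at 167, 395 and 493 (standard diet) and 2600.3, 0.313 and 251 (GW3965) at day 70. Where both exceeded 5 TPM, Krt13 exceeded Krt4 by 24.9, 42.1 and 12.1 times in the standard-diet samples of day 43 and 3.72, 3.00 and 2.91 times in those of day 70. GW3965 gave ratios of 37.8 and 6.52 in replicates 1 and 3 of day 43 and 1.77 and 7.63 in replicates 1 and 3 of day 70. These ratios were lower at day 70 on the standard diet without overlap, and overlapped between the days on GW3965.

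The cornifying pair Krt10 (type I) and Krt1 (type II) was above the day 0 range in every sample of day 43 and uneven between samples at day 70. Krt10 was at 4.49 to 8.45 TPM at day 0, 31.5, 16.1 and 56.0 on the standard diet and 50.2, 16.8 and 98.2 on GW3965 at day 43, and 102, 374 and 206 (standard diet) and 5010.4, 4.21 and 377 (GW3965) at day 70. Krt1 was at 0.0255 to 0.331 TPM at day 0, 0.613, 0.412 and 3.02 (standard diet) and 3.61, 0.427 and 23.2 (GW3965) at day 43, and 49.8, 252 and 100.3 (standard diet) and 2942, 0 and 71.9 (GW3965) at day 70. GW3965 day 70 replicate 1 held 74.5% of the Krt10 counts and 82.0% of the Krt1 counts of the whole series. Krt10 per Krt14 was 1.99 in this sample and 0.102 in replicate 3 of the same group, although both were rich in Krt14.

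Among the other suprabasal keratins, Krt79 reached 154 TPM, Krt78 55.1 TPM and Krt80 48.9 TPM, all in GW3965 day 70 replicate 1, and Krt12, the corneal type I keratin, reached 11.8 TPM in replicate 3. Krt80 was present at day 0 already, at 4.79 to 22.2 TPM. At day 70 it was at 20.4, 16.7 and 20.6 TPM on the standard diet and 48.9, 12.8 and 12.4 on GW3965. Only GW3965 replicate 1 lay above the day 0 range. The 5 suprabasal members that did not pass the filter, Krt2, Krt9, Krt24, Krt76 and Krt77, stayed at or below 1.83 TPM in every sample.

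The stress-inducible keratins were low or absent at day 0. Krt6a had 0 counts in all 8 samples of day 0 and was at 0 to 0.341 TPM at day 22. It was at 25.2, 117 and 33.7 TPM on the standard diet and 182, 10.3 and 381 on GW3965 at day 43, and at 449, 515 and 402 (standard diet) and 1954, 0.170 and 1886 (GW3965) at day 70. Every day 43 sample was above every day 22 sample. Krt16, a type I partner of Krt6a, was at 0 to 0.700 TPM at day 0, 1.72, 7.60 and 23.7 (standard diet) and 37.4, 1.73 and 107 (GW3965) at day 43, and 13.9, 149 and 18.2 (standard diet) and 912, 0.261 and 503 (GW3965) at day 70. Per Krt6a, Krt16 ranged from 0.0309 to 0.703, so the pair did not keep a fixed balance. Krt17, which was present at day 0 at 2.00 to 7.57 TPM, was at 4.71, 30.8 and 10.3 (standard diet) and 86.5, 7.85 and 47.0 (GW3965) TPM at day 43 and 27.4, 52.0 and 35.3 (standard diet) and 179, 1.58 and 384 (GW3965) at day 70. The day 0 range of Krt17 held standard-diet day 43 replicate 1 and lay above GW3965 day 70 replicate 2. Krt6b resembles Krt6a over 45.9% of the 31-base words of Krt6a, so reads may have been split between them, and it reached 105, 287 and 186 TPM on the standard diet and 1416, 0.347 and 1062 on GW3965 at day 70.

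**Figure D4:**
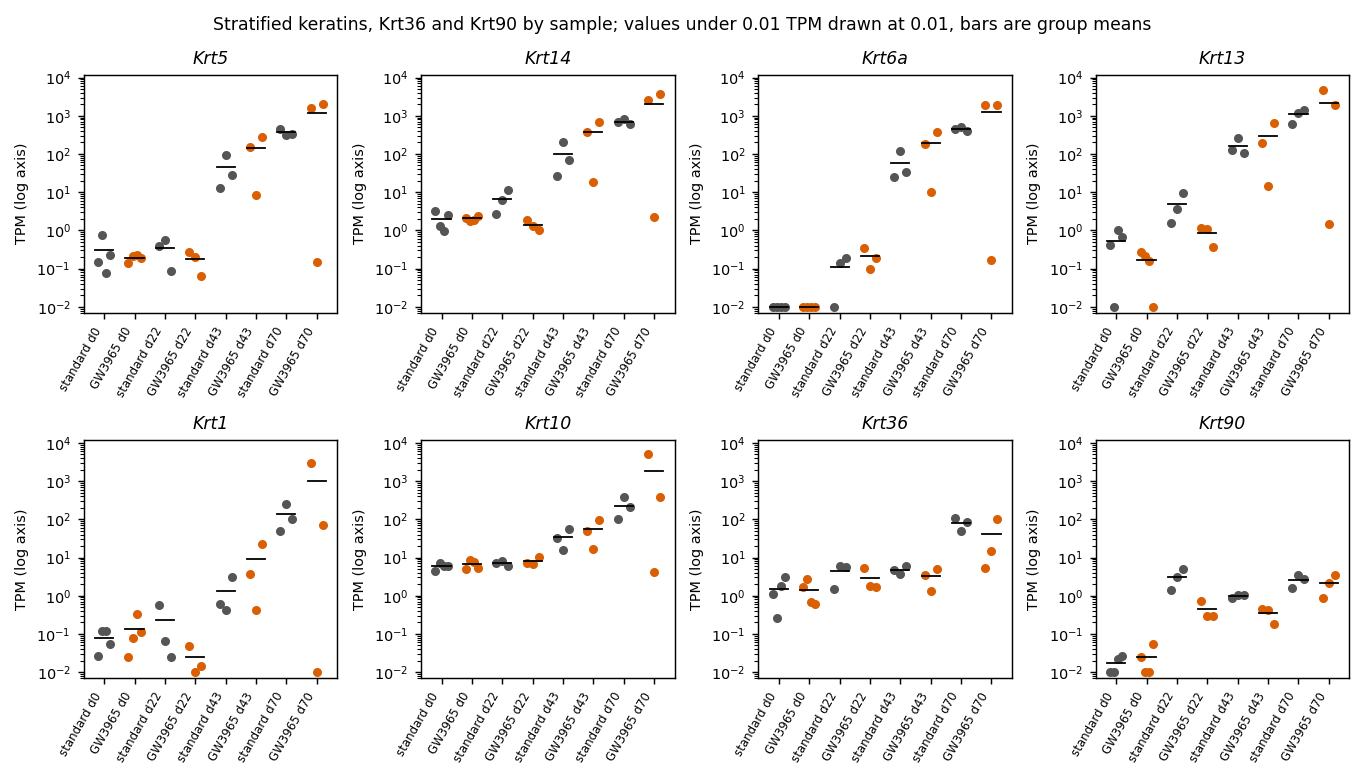
Points are samples and bars group means in TPM on a log axis, for stratified keratins, Krt36 and Krt90. Values under 0.01 TPM are drawn at 0.01, and GW3965 day 70 replicate 2 is the low point of that group for the stratified genes and not for Krt36 or Krt90.

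The hair and nail class was low, and only Krt36 passed 100 TPM. Krt36, a type I keratin of nail and tongue papillae, was at 0.257 to 3.08 TPM at day 0, 1.53 to 5.93 at day 22 and 1.34 to 5.93 at day 43. At day 70 it was at 105, 49.2 and 85.5 TPM on the standard diet and 5.23, 14.6 and 100.3 on GW3965. Every sample of day 70 was above the day 0 range, GW3965 replicate 2 included, and per Epcam the values were 0.0552, 0.0376 and 0.0576 (standard diet) and 0.0140, 0.0107 and 0.0711 (GW3965) against 0.00032 to 0.00225 at day 0. Krt84, a type II keratin of the same class, was at 0.485 to 1.70 TPM at day 0, 26.5, 4.41 and 8.44 on the standard diet at day 70 and 3.21, 5.55 and 15.01 on GW3965. Krt87 was at 0.515 to 2.12 TPM at day 0 and at 9.67, 5.17 and 4.61 (standard diet) and 6.91, 2.62 and 5.32 (GW3965) at day 70. For Krt84 and Krt87, too, no day 70 sample fell into the day 0 range.

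Krt90, a type II gene of the chromosome 15 cluster, had its own course. It had 2 counts over the standard-diet samples of day 0 and 3 counts over those on GW3965. At day 22 it was at 1.38, 3.18 and 4.92 TPM on the standard diet and 0.723, 0.298 and 0.295 on GW3965, at day 43 at 0.864, 1.02 and 1.08 (standard diet) and 0.446, 0.431 and 0.187 (GW3965), and at day 70 at 1.55, 3.44 and 2.74 (standard diet) and 0.858, 2.22 and 3.50 (GW3965). At days 22 and 43 the standard-diet samples were above those on GW3965 without overlap, while at day 70 the diets overlapped. Its levels were low, and 0.559% of its 31-base words occurred in other genes.

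The root sheath keratins were seen mainly in 1 sample. Krt71 was at 29.8 TPM in GW3965 day 70 replicate 1 and 2.75 TPM in standard-diet day 70 replicate 2, and at most 0.0265 TPM in the other 24 samples. Krt25 was at 20.0 and 1.97 TPM in those samples and Krt27 at 14.9 and 1.09 TPM. The hair shaft genes Krt31, Krt33a, Krt33b and Krt34 had 93.2 to 98.1% of all their counts in GW3965 day 70 replicate 1. Among hair follicle markers, S100a3 was at 0.0257 to 0.955 TPM at day 0 and 3.63 to 20.3 at day 43, while Hoxc13, Krtap11-1, Krtap8-1 and Krtap13-1 were at 0 in all samples of days 0 and 43. At day 70 Krtap11-1 and Krtap13-1 were at 0 in all standard-diet samples, and no marker was at 0 in all GW3965 samples. The 10 markers then summed to 13.6, 19.8 and 30.9 TPM on the standard diet. On GW3965 they summed to 79.0, 17.9 and 32.2 TPM, against 1.30 to 2.76 TPM at day 0. The skeletal muscle markers summed to 31879 TPM in GW3965 day 70 replicate 1 and 1337 TPM in standard-diet day 70 replicate 2, against 29.3 to 107 TPM at day 0, and the 12 colon epithelium markers were lowest in the first of these samples (1647 TPM, against 6112 to 10061 at day 0). The skeletal muscle sum also exceeded the day 0 range in GW3965 day 43 replicate 3 (450 TPM), standard-diet day 70 replicate 3 (263 TPM) and standard-diet day 43 replicate 1 (172 TPM). The part of tissue other than colon mucosa in these values was not tested.

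By day 22, Krt90 alone passed the test. From its few counts of day 0, it was 309.7-fold higher on the standard diet, with a 95% counting interval of 85.2 to 2566, and 30.98-fold higher on GW3965, with an interval of 10.1 to 154. The edgeR quasi-likelihood test, with Benjamini-Hochberg adjustment over 17063 genes and a threshold of 0.05, gave an adjusted p of 6.02e-05 on the standard diet and 0.00126 on GW3965. Here and after this, values with ± are fitted log2 fold changes with their standard error. This is 1 of 31 tested keratins on each diet, against 7.73% of all tested genes called on the standard diet and 12.6% on GW3965. On the standard diet Krt13, at 3.53 ± 1.36 (adjusted p = 0.125), and Krt14, at 3.06 ± 1.24 (adjusted p = 0.147), did not pass. All 3 samples exceeded those of day 0 on this diet in normalised counts, while in TPM replicate 1 of Krt14 lay within the day 0 range. The simple keratins did not pass on either diet, Krt8 being at -0.59 ± 0.39 (adjusted p = 0.436) and -0.33 ± 0.41 (adjusted p = 0.658). All p-values measure the spread between these mice.

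At day 43, 7 of the 15 tested basal, suprabasal and stress-inducible keratins rose on GW3965, and the other 8 did not pass. Krt13 (log2 fold change 13.50 ± 2.00, adjusted p = 0.00476), Krt5 (12.34 ± 2.04, adjusted p = 0.00532), Krt14 (10.67 ± 1.76, adjusted p = 0.00532), Krt15 (7.48 ± 1.24, adjusted p = 0.00532), Krt4 (12.22 ± 2.30, adjusted p = 0.0110), Krt6a and Krt6b passed the edgeR test. Krt6a was at least 15720.1-fold higher, set against a floor of 3 counts over the day 0 samples, and Krt6b, with 2 counts at day 0, was 10519.8-fold higher (95% counting interval 2912 to 86875). These 7 of 31 tested keratins compare with 0.938% of all tested genes called (0.897% higher). Of the 7, 6 were among the 15 that had few counts at day 0, and Krt14 was among the other 16. Without GW3965 replicate 3, the sample with the highest Krt14, or with only the day 0 mice of the same days of diet, 0 keratins passed, and Krt4 did not pass without replicate 2 either (adjusted p = 0.0766). In replicate 3 the skeletal muscle markers summed to 450 TPM, against 27.9 and 19.8 TPM in replicates 1 and 2.

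On the standard diet the same test called 0 keratins at day 43 and 0 genes in all (0%). At an unadjusted p under 0.05 it gave 10 keratins, all higher, and DESeq2 called 8. Krt13 was at 13.05 ± 2.81 (adjusted p = 0.165), Krt14 at 10.65 ± 2.57 (adjusted p = 0.188) and Krt5 at 11.82 ± 2.84 (adjusted p = 0.188), and all of these had 3 samples above every day 0 sample. Krt6a was at least 5248-fold higher by the floor, with 0 counts at day 0. Without the ribosomal term, 18 keratins passed as higher and 2 as lower, Krt8 at -1.65 ± 0.41 (adjusted p = 0.00187) and Krt19 at -1.15 ± 0.41 (adjusted p = 0.0208), while 55.1% of all genes passed. On the standard diet this fit gave smaller changes for Krt13, at 9.05 (adjusted p = 5.82e-05), Krt14, at 7.32 (adjusted p = 0.000133), and Krt5, at 8.19 (adjusted p = 0.000152). On GW3965 the fit without the term called 18 higher (45.3% of all genes). For equal ribosomal share Krt8 was at -0.74 ± 0.84 (adjusted p = 0.942) on the standard diet and -0.31 ± 0.63 (adjusted p = 0.887) on GW3965. Since the ribosomal share of day 43 did not overlap that of day 0, the change with day and the change with that share cannot be told apart.

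By day 70 keratins of most classes had risen on both diets. On the standard diet 25 of 31 tested keratins passed as higher and Krt222 as lower, at -1.81 ± 0.67 (adjusted p = 0.0440), a call that was lost with replicate numbers as a block (adjusted p = 0.0737) and on leaving out 1 of several samples, against 33.2% of all tested genes called (18.1% higher, 15.1% lower). On GW3965 24 passed as higher and 0 as lower, against 21.8% (14.4% higher, 7.43% lower). The other 15 of the 31 had few counts at day 0, and their rise was built into passing the filter. Among the 16 members with counts at day 0, 11 passed as higher on the standard diet and 9 on GW3965. The median log2 fold change of these 16 was 2.49 on the standard diet and 2.42 on GW3965, against 0.0350 and 0.102 over all genes tested.

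Of the 6 simple keratins, 3 rose on the standard diet at day 70. Krt23 was at 4.18 ± 0.57 (adjusted p = 6.69e-05), Krt7 at 2.22 ± 0.49 (adjusted p = 0.00221) and Krt18 at 1.49 ± 0.37 (adjusted p = 0.00480). Krt8 was at 0.10 ± 0.38 (adjusted p = 0.861), Krt19 at 0.37 ± 0.39 (adjusted p = 0.501) and Krt20 at 0.15 ± 0.49 (adjusted p = 0.844), and none of these passed. On GW3965 only Krt23 rose, at 3.43 ± 0.56 (adjusted p = 0.000375), while Krt7 was at 1.05 ± 0.49 (adjusted p = 0.132), Krt18 at 0.09 ± 0.38 (adjusted p = 0.900) and Krt8 at -0.69 ± 0.39 (adjusted p = 0.225).

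Of the 20 basal, suprabasal and stress-inducible keratins, the 15 that passed the filter rose on both diets at day 70, and the other 5 were not tested. Of the 15, 10 had passed the filter only through later samples, which built in their rise, and the 5 with counts at day 0 were Krt14, Krt10, Krt17, Krt78 and Krt80. On the standard diet Krt5 was at 10.16 ± 1.60 (adjusted p = 0.000193), Krt14 at 9.20 ± 1.42 (adjusted p = 0.000174), Krt13 at 11.11 ± 1.59 (adjusted p = 9.71e-05), Krt10 at 6.21 ± 1.31 (adjusted p = 0.00159) and Krt17 at 3.01 ± 0.96 (adjusted p = 0.0210). Krt17 missed the threshold without standard-diet day 0 replicate 3 or 4 or day 70 replicate 2 (adjusted p = 0.0501 to 0.0675). On GW3965 these genes were at 12.13 ± 1.74 (adjusted p = 0.000123), 10.21 ± 1.48 (adjusted p = 0.000139), 13.19 ± 1.77 (adjusted p = 8.19e-05), 9.13 ± 1.50 (adjusted p = 0.000386) and 5.19 ± 1.04 (adjusted p = 0.00178). Krt15 was at 6.79 ± 0.95 (adjusted p = 8.14e-05) and 7.20 ± 0.99 (adjusted p = 8.8e-05), Krt4 at 12.01 ± 1.86 (adjusted p = 0.000173) and 12.55 ± 1.95 (adjusted p = 0.000257), Krt1 at 10.77 ± 2.05 (adjusted p = 0.000765) and 13.03 ± 2.24 (adjusted p = 0.000536) and Krt16 at 7.43 ± 1.69 (adjusted p = 0.00260) and 10.74 ± 1.92 (adjusted p = 0.00071), with the standard diet first. Krt6a, with 0 counts at day 0, was at least 21443-fold higher on the standard diet and at least 56100.1-fold higher on GW3965. The GW3965 values rest on replicates 1 and 3. In replicate 2 Krt5, Krt14, Krt10, Krt1, Krt16, Krt17, Krt12, Krt79 and Krt80 lay in or under the day 0 range in TPM.

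The others of these classes also passed on both diets. For Krt80 the test used summed counts, and in TPM only GW3965 replicate 1 of day 70 exceeded the day 0 range. Krt78 was at 4.46 ± 0.95 (adjusted p = 0.00167) on the standard diet and 5.80 ± 1.01 (adjusted p = 0.000597) on GW3965, Krt80 at 2.75 ± 0.65 (adjusted p = 0.00333) and 3.39 ± 0.68 (adjusted p = 0.00180), and Krt12 at 5.29 ± 1.22 (adjusted p = 0.00290) and 6.94 ± 1.26 (adjusted p = 0.000799), all with the standard diet first. Krt79 was at 9.14 ± 2.19 (adjusted p = 0.00369) on the standard diet and, with 1 count at day 0, 4946-fold higher on GW3965 (95% counting interval 887 to 195404, adjusted p = 0.00431), but without GW3965 replicate 1 its adjusted p was 0.145. On the standard diet Krt79 was uneven at day 70, at 0.294, 46.9 and 4.37 TPM. Replicate 1 lay within the day 0 range of that diet, 0 to 0.468 TPM. Krt6b was at 12.71 ± 1.85 (adjusted p = 0.000112) on the standard diet and, with 2 counts at day 0, 51907-fold higher on GW3965 (95% counting interval 14369 to 428621, adjusted p = 8.19e-05).

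In the hair and nail class 6 of the 7 tested genes rose on each diet, among them Krt36, Krt84 and Krt87, which had counts at day 0. Krt36 was at 5.66 ± 0.89 (adjusted p = 0.000182) on the standard diet and 4.78 ± 0.86 (adjusted p = 0.000776) on GW3965, Krt84 at 4.25 ± 0.68 (adjusted p = 0.000231) and 2.79 ± 0.66 (adjusted p = 0.00520), and Krt87 at 2.22 ± 0.48 (adjusted p = 0.00175) and 2.05 ± 0.49 (adjusted p = 0.00564). For Krt84 on GW3965 the adjusted p was 0.136 without replicate 3. From its few counts at day 0, Krt90 was 211-fold higher on the standard diet (95% counting interval 58.0 to 1751, adjusted p = 1.65e-05) and 119-fold higher on GW3965 (40.5 to 583, adjusted p = 2.03e-05). Krt35 was at 5.61 ± 1.50 (adjusted p = 0.00739) and 5.22 ± 1.51 (adjusted p = 0.0178), and on GW3965 its adjusted p was 0.0553 without replicate 1. Krt32, absent from the standard-diet samples of day 0, was at least 22.3-fold higher there, and on GW3965, with 1 count at day 0, 51.7-fold higher (95% counting interval 8.82 to 2087). Krt83 did not pass, at -0.89 ± 1.12 (adjusted p = 0.572) and 0.65 ± 1.05 (adjusted p = 0.702). Of the 2 tested root sheath genes, Krt75 was higher by at least 21.9-fold on the standard diet and at least 64.3-fold on GW3965 (0 counts at day 0), although on the standard diet it missed the threshold without day 0 replicate 1 or 2 or day 70 replicate 1 (adjusted p = 0.0516 to 0.0753), and Krt27 passed on GW3965 alone, at least 116-fold higher, a call that was lost without replicate 1 (adjusted p = 0.176).

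**Figure D5:**
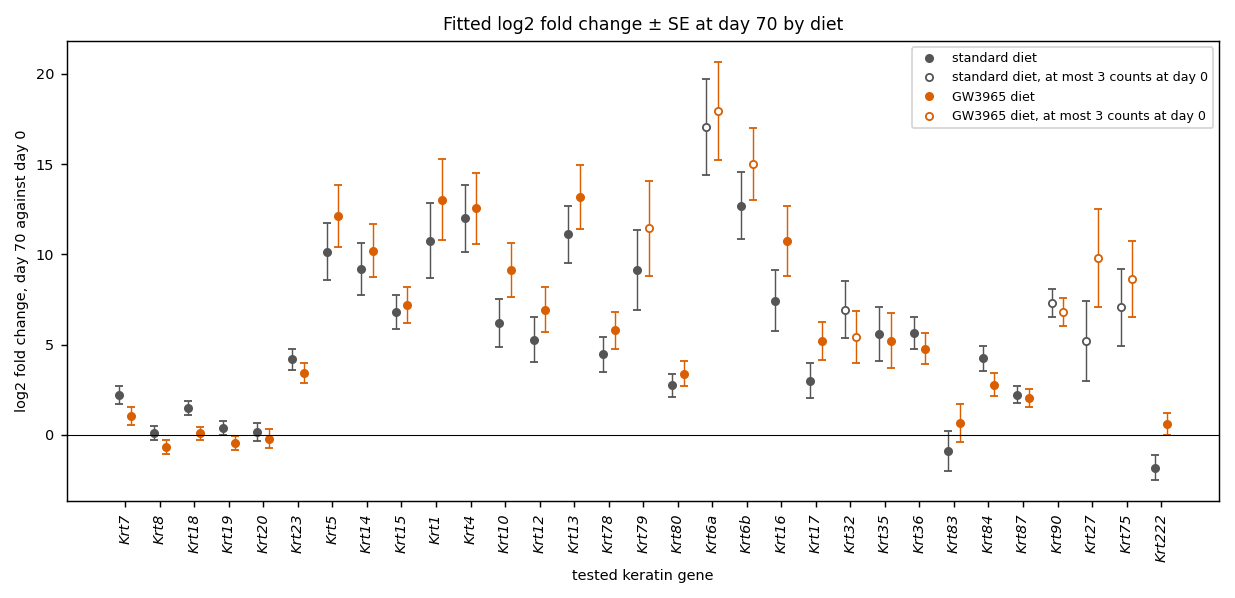
Points are the fitted log2 fold changes ± SE of the 31 tested keratins, day 70 against day 0 of the same diet, with the diets side by side. Open points had at most 3 counts over the day 0 samples, so their fitted size depends on the prior count, and Krt8, Krt19 and Krt20 lie near 0 on both diets.

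Between the diets 0 of 31 tested keratins differed on any day by the edgeR test, against 0.0293%, 0.135%, 0.0293% and 1.83% of all tested genes at days 0, 22, 43 and 70. At an unadjusted p under 0.05 there were 0, 1, 0 and 3 keratins on these days, and DESeq2 called 1, Krt90, at day 22. In the edgeR fit Krt90 was at -2.78 ± 0.63 (GW3965 over standard diet, adjusted p = 0.0930). At day 70 Krt18 was at -1.17 ± 0.41 (adjusted p = 0.129), with all 3 GW3965 samples below the 3 on the standard diet, Krt222 at 2.10 ± 0.73 (adjusted p = 0.126) and Krt83 at 2.85 ± 1.25 (adjusted p = 0.226). For the stratified genes the spread within the GW3965 group of day 70 was wide, and the diet difference of Krt14 was 1.16 ± 1.16 (adjusted p = 0.611) and that of Krt13 0.27 ± 1.23 (adjusted p = 0.931). Without GW3965 day 70 replicate 2, Krt10 at 3.35 (adjusted p = 0.0377) and Krt17 at 2.63 (adjusted p = 0.0441) passed as higher on GW3965 at day 70. Without replicate 3, Krt222 at 2.66 (adjusted p = 0.0212) passed as higher and Krt18 at -1.91 (adjusted p = 0.00842), Krt7 at -2.21 (adjusted p = 0.00650) and Krt36 at -3.21 (adjusted p = 0.0232) as lower, all 6 named after their values were seen.

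Whether the diet effect itself differed from that at day 0 was tested as an interaction. It passed for 0 of 31 keratins at days 22, 43 and 70 (0.0234%, 0% and 0% of all tested genes), and at an unadjusted p under 0.05 for 1, 0 and 2, while DESeq2 called 0 keratins. Krt18 was at -1.40 ± 0.54 (adjusted p = 0.283), Krt222 at 2.42 ± 0.92 (adjusted p = 0.279) and, for day 22, Krt90 at -3.23 ± 1.39 (adjusted p = 0.729), a value that depends on its few counts at day 0. Without GW3965 day 70 replicate 3, the interaction of day 70 passed for Krt18 at -2.15 (adjusted p = 0.0333) and Krt7 at -2.63 (adjusted p = 0.0197).

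Genes whose products bind or cross-link keratin filaments, or belong to the desmosomes and hemidesmosomes that anchor them, were examined as well. Of 18 such genes, 12 rose and 2 fell on the standard diet at day 70, and 10 rose and 0 fell on GW3965, against the shares of all genes given for that day. At day 43 the counts were 0 on the standard diet and 1 higher on GW3965, and at day 22 0 on both. Among the most abundant, Jup (plakoglobin, a desmosomal plaque protein) was at 340.2, 149 and 156 TPM on the standard diet and 397, 135 and 343 on GW3965 at day 70, against 69.8 to 118 at day 0. Itga6, an integrin subunit of the hemidesmosome, was at 474, 222 and 232 (standard diet) and 110.1, 156 and 278 (GW3965) TPM, against 73.6 to 154. Jup was above day 0 in all 6 samples, and Itga6 in all 3 on the standard diet.

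Markers of stratified squamous epithelium other than keratins were examined in the same way. Of 16 such genes, 15 rose and Tgm3 fell on each diet at day 70, where 18.1% of all tested genes were higher on the standard diet and 14.4% on GW3965. At day 43, 6 rose on GW3965, against 0.897% of all genes, and 0 passed on the standard diet. At day 0, 5 of the 16 were at 0 in all samples of the standard diet and 6 in all of GW3965, and these passed the filter through other samples. Their summed level was 233 to 527 TPM at day 0, of which Tgm3, also made by colon epithelium, took 121 to 428. The sum was 881, 2683 and 2583 TPM on the standard diet and 11432, 296 and 3619 TPM on GW3965 at day 70. Trp63, the basal cell transcription factor, was at 0.0125 to 0.159 TPM at day 0, 0.634, 1.96 and 0.374 (standard diet) and 2.44, 0.241 and 5.13 (GW3965) at day 43, and 12.5, 11.04 and 10.3 (standard diet) and 59.0, 0.0442 and 40.2 (GW3965) at day 70. In GW3965 day 70 replicate 2 the sum and Trp63 lay within the day 0 range.

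Other cell types were not constant either. At day 70, 9 of 10 skeletal muscle markers rose on GW3965 and 5 on the standard diet, 8 of 8 smooth muscle markers fell on the standard diet and 2 on GW3965, and of 12 colon epithelium markers 4 fell on GW3965, while 1 rose and 2 fell on the standard diet. Of all tested genes 14.4% were higher and 7.43% lower on GW3965, and 18.1% and 15.1% on the standard diet. The skeletal muscle markers summed to 31879, 27.0 and 38.2 TPM in the GW3965 samples of day 70, against 29.3 to 107 TPM at day 0. Only replicate 1 of that group lay above the day 0 range. On the standard diet the sums were 15.2, 1337 and 263 TPM, with replicate 1 below that range. Of 8 leukocyte markers 4 were higher on GW3965 than on the standard diet at day 70, against 1.83% of all genes in either direction. All 5 tested hair follicle markers rose on GW3965 and 2 on the standard diet. Of the mesothelium markers, Upk3b was at no more than 1.73 TPM and Lrrn4 at no more than 0.264 TPM, and 2 of 5 tested markers of that list rose on the standard diet at day 70 and 1 on GW3965. Without GW3965 day 70 replicate 1 (the sample with the most skeletal muscle RNA) and standard-diet day 43 replicate 1, the count of keratins called on GW3965 at day 70 was again 24, of which 22 were shared, with Krt7 at 1.49 (adjusted p = 0.0165) and Krt83 at -2.10 (adjusted p = 0.0445) called there instead of the remaining pair. The part of tissue composition in the keratin values was not tested.

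Several members share sequence with relatives, so their counts are uncertain where reads could be split. Of the 31-base words of each gene, 52.4% were shared with other genes for Krt87, 57.0% for Krt6b, 51.9% for Krt16, 51.3% for Krt6a, 32.3% for Krt8 and 28.2% for Krt14. The word sharing of Krt8 was chiefly with the pseudogene Krt8-ps, which had 211 counts over all samples, and that of Krt16 with the pseudogene Gm11597, which had 4.18. Krt14, with 283782 counts, shared 17.6% of its words with Krt16, which had 44095, so reads may have been split between these genes too. Krt20, Krt23 and Krt12 shared none, and Krt36 shared 1.77%. Whether counting used strand was not given in the sources used here, so antisense transcripts cannot be told apart.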

How the data were processed

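Polyadenylated RNA of 26 colon samples was measured. According to the submitters' processing notes, the authors quantified reads with kallisto against GRCm38 transcripts and deposited estimated counts and TPM (abundance scaled for transcript length and library size) for each transcript. The kallisto version and annotation release are not given in the sources used here. The deposited estimated counts and TPM were summed per gene, by Ensembl gene identifier, for 116728 of 119414 transcripts. The unmatched transcripts took 0.615 to 0.999% of the counts and were left out of library sizes and tests. TPM values were used for levels only.

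Counts were rounded and tested in R (version 4.3.3) with the quasi-likelihood F-test of edgeR (version 4.0.16) after filterByExpr and TMM scaling, in a model of the 8 groups plus the percent of counts in 88 ribosomal protein genes. Benjamini-Hochberg adjustment ran over all 17063 genes tested, with a threshold of 0.05, in 13 comparisons. Standard errors are the log2 fold change divided by the square root of F. The later days of a diet share their day 0 samples. The test was checked on simulated data in which genes were changed in the GW3965 samples of day 70 alone, so recovery was not simulated for the standard diet or for the other days. Of 200 genes changed by a log2 fold of 2, 79% were recovered against day 0 and 76% against the standard diet. In these comparisons 6 and 5 unchanged genes were called.

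The alternatives were DESeq2 (version 1.42.0), no ribosomal term, RLE scaling, no filter, replicate numbers as a block, day 0 samples of the same days of diet, and each sample left out. Leaving out the sample of the lowest RNA integrity together with the sample with the most skeletal muscle RNA was chosen after seeing the data. Tables and figures were made with Python (version 3.11.15), pandas (version 2.3.3), numpy (version 2.4.6) and matplotlib (version 3.10.9).

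The members and gene lists were chosen with earlier results of these data known. Named by rule were the simple and basal keratins, Krt1, Krt4, Krt10, Krt13, Krt6a, Krt16, Krt17, the 3 hair and nail and 3 root sheath keratins with the most counts, each further member that passed a test, and up to 3 genes of a partner or marker list. Other genes were named after their values were seen. Genes with 0 counts at day 0 are given as a bound against a floor of 3 counts over the group. Counting intervals are exact, at 95%, and together with the floors cover counting error only, since reads are not independent molecules.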

Additional observations from a re-analysis of the deposited data

Results flagged for a closer look

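Krt19 in the GW3965 group of day 0 had a sample far from the others. Replicate 1 had the highest normalised count of its group, 2772 CPM (counts scaled to library size), against 1902, 1742 and 1831 CPM in the other replicates, and its gap to the nearest of them took up more of the range of the group than Dixon's 95% critical value for 4 samples allows. In all, 39 groups of 4 samples were examined in this way, and chance gives such a gap in about 1 of 20 groups, so 1 in 39 is no more than chance gives.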

How the results depend on the processing

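Among the 59 single-gene results that passed the test, 741 values under alternatives kept their direction, of which 707 kept their side of the threshold and 34 lost it. Of genes that did not pass, Krt83 on GW3965 at day 70 turned from 0.65 to -2.10 without the 2 samples of low integrity and most muscle RNA. The counts of keratins called at day 70 kept within 1.5 times, at 22 to 28. DESeq2 called 3 keratins on the standard diet and 4 on GW3965 at day 22 (Krt14 and Krt84, and Krt13, Krt6a and Krt6b, beside Krt90), 8 and 11 at day 43, and 1 (Krt90) between the diets at day 22. Without the ribosomal term 20 and 18 were called at day 43, where the median of all genes on the standard diet was 0.137 (log2) without the term and 0.0626 with it. With day 0 samples of the same days of diet, 0 passed on GW3965 at day 43. Leaving out 1 sample gave 1 to 2 calls on the standard diet at day 22 (2 with Krt84, without replicate 1), 0 to 7 on GW3965 at day 43, 0 to 4 between the diets at day 70 and 0 to 2 for the interaction at day 70. Replicate numbers as a block took the standard diet at day 70 from 26 to 25, without Krt222, and changed no other count of calls. Of 13 same-numbered pairs, 2 correlated over 0.1 (mean -0.066), so the numbers do not pair the samples. Members with few counts at day 0 have wide counting intervals.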
